A study of Mus musculus with 3 samples.

Results

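The choroid plexus is a secretory epithelium that lies in the brain ventricles, among them the lateral ventricle beside the hippocampus. Its cells make cerebrospinal fluid and move ions, water, vitamins and hormone carriers between blood and fluid. Transthyretin, the product of Ttr, carries thyroxine and the retinol-binding protein, and in brain it is made mainly by this epithelium. The 10 genes described here are Ttr, Enpp2, Folr1, 1500015O10Rik, Clic6, Kcnj13, Kl, Aqp1, Otx2 and Sostdc1. They were chosen by name as markers of that epithelium, and all 10 were found among the 54532 genes of the deposited table.

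The RNA came from hippocampi of C57BL/6-background mice aged 10 months and was read by bulk RNA-seq. The 3 groups were wild type (WT), PS19, and PS19 heterozygous for loss of Zbp1 (PS19 Zbp1+/-). PS19 mice express mutant human tau from a transgene with the mouse Prnp promoter, and tau aggregates build up in their neurons. The Zbp1 protein senses Z-form nucleic acid. Each genotype was 1 library, and the labels do not say whether it came from 1 animal or a pool, so the differences come without replicates and without p-values. Levels are FPKM, that is, fragments by gene length and library size, from which whole reads were recovered. Sets of 3 values run in the order WT, PS19, PS19 Zbp1+/-. Library size is the one that the FPKM values imply, at 17253479, 17287957 and 15826984. Intervals are exact (Clopper-Pearson) 95% intervals of a read ratio per that library size. They compare libraries, not genotypes. Reads lacking molecular identifiers are not independent molecules, so the intervals hold counting error alone.

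The recovered reads summed to 16746085, 16400328 and 17109734. In PS19 Zbp1+/- this sum was above the implied library size, and in WT and PS19 it was below. Scaled by summed reads, PS19 Zbp1+/- therefore stands lower against the other libraries than in the ratios printed here. Zbp1 itself had 5, 91 and 0 reads. Set against the 91 reads of PS19, the 0 reads go against a label of 1 remaining allele, while against the 5 reads of WT they do not settle it. PS19 Zbp1+/- below means the library so labelled, and every direction given for it rests on that label. Endogenous Mapt was at 63.0, 65.1 and 65.3 FPKM, and the human transgene was not analysed here. The labels give no sex. The X inactivation transcript Xist had 11062, 13350 and 0 reads, and the Y-linked Ddx3y had 0, 0 and 711. Genotype and sex therefore cannot be told apart in the comparisons of PS19 Zbp1+/-. All of the 12 hippocampal neuron markers had reads in every library, and their summed level was 339, 257 and 332 FPKM. The PS19 Zbp1+/- sum leans on Fibcd1, at 37.0, 27.0 and 111 FPKM. Of the 12, 10 were lower there than in WT by some amount, and Fibcd1 and Calb1 were higher. The sum therefore does not show that neuronal content matched WT. The 8 striatum genes and the 10 thalamus and habenula genes described below also had reads in every library. Having reads therefore does not tell these regions apart.

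The genes were chosen as markers of the same epithelium but are scattered in the genome, on 9 chromosomes. RefSeq (GRCm38.p6) promoters were matched for 5 of the 10 genes. The stretch of 250 bases before the start site is shown for 4 of them, because these genes were low together in one library and differed in how much was left. They are chr1:87394730-87394979 on the minus strand for Kcnj13, chr1:43730352-43730601 on the plus strand for 1500015O10Rik (Ecrg4 in RefSeq), chr6:55336049-55336298 on the plus strand for Aqp1 and chr5:150952357-150952606 on the plus strand for Kl. Each is written 5′ to 3′ towards the start site, with the TATAAA match in capitals.
Kcnj13: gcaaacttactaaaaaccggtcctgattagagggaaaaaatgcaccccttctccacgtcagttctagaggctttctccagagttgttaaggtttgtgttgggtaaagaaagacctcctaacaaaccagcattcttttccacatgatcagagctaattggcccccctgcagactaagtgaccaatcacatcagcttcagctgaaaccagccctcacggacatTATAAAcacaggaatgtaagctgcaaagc
1500015O10Rik: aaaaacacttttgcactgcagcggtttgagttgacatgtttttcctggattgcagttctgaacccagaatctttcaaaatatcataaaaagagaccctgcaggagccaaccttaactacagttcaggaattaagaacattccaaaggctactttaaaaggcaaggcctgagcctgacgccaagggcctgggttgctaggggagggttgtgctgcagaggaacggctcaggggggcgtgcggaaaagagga
Aqp1: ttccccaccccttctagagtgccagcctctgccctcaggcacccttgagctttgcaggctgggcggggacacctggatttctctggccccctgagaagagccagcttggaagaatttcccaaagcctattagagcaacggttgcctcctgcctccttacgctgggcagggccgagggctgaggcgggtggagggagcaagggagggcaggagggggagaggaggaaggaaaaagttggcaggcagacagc
Kl: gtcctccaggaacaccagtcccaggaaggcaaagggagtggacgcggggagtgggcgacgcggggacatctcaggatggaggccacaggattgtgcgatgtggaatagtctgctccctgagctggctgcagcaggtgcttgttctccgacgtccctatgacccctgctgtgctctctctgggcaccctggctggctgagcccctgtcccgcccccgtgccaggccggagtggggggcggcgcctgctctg

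On both strands 3 motifs were searched. The core bound by Otx proteins, TAATCC, whose opposite strand reads GGATTA, was in none of these 4 stretches and is in 6.25% of 32851 RefSeq promoter stretches of the same length. A forkhead core, GTAAACA, whose opposite strand reads TGTTTAC, was in none of them and is in 3.17% of all. The TATA box, TATAAA, whose opposite strand reads TTTATA, was found in Kcnj13, 29 bases before the start site, and is in 12.4% of all. Of the 4 Otx2 start sites in RefSeq, 1 had GGATTA, 211 bases before the start, and another had TATAAA, 192 bases before it. These matches describe letters and not binding. G and C bases made up 45.2% of the Kcnj13 stretch, 48.4% of that of 1500015O10Rik, 62.0% of that of Aqp1 and 66.8% of that of Kl, against a median of 52.4% over all promoters. No 1 of the 3 motifs was in all 4 stretches, which describes these windows alone.

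In WT the set was dominated by its carrier protein gene. Ttr (ENSMUSG00000061808; GRCm38 chromosome 18, 20665250 to 20674324, plus strand) stood at 3036, 1842 and 7.05 FPKM, from 63846, 38820 and 136 reads. WT and PS19 were both high and PS19 Zbp1+/- was far below them. Ranked by FPKM, Ttr was 4 among the protein-coding genes of WT, 7 in PS19 and 6232 in PS19 Zbp1+/-. It was 431-fold lower in PS19 Zbp1+/- than in WT (95% interval 364 to 513) and 261-fold lower than in PS19 (221 to 312). In PS19 it was 0.607 times the WT level (0.599 to 0.615). In this bulk RNA fewer plexus cells and less RNA per cell cannot be told apart.

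Enpp2 (ENSMUSG00000022425; chromosome 15, 54838901 to 54952892, minus strand) encodes autotaxin, the secreted enzyme that makes lysophosphatidic acid. Its FPKM was 286, 257 and 15.0, from 28530, 25713 and 1372 reads. It was 19.1-fold lower in PS19 Zbp1+/- than in WT (18.1 to 20.2) and close to WT in PS19, at a ratio of 0.899 (0.884 to 0.915). With Ttr this low, Enpp2 was the most abundant of the 10 genes in PS19 Zbp1+/-. Oligodendrocytes also express Enpp2. Their 12 marker genes summed to 934, 1668 and 606 FPKM, with none at 0 in any library, and their part in the Enpp2 values was not tested.

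1500015O10Rik (ENSMUSG00000026051; chromosome 1, 43730602 to 43742578, plus strand) encodes augurin, a secreted peptide precursor also called Ecrg4. Its FPKM was 49.2, 32.0 and 0.630, the last from 9 reads. It was 78.0-fold lower in PS19 Zbp1+/- than in WT (40.9 to 171), and in PS19 it was 0.651 times WT (0.580 to 0.730). Sostdc1 (ENSMUSG00000036169; chromosome 12, 36314139 to 36318452, plus strand) encodes a secreted antagonist of Bmp and Wnt signals. Its FPKM was 27.5, 10.6 and 1.21, from 845, 327 and 34 reads. The 3 libraries stood in clear steps for Sostdc1. It was the 1 gene of the set that was more than 2-fold lower in PS19 than in WT, at 2.59-fold (2.28 to 2.95), and it was 22.8-fold lower in PS19 Zbp1+/- than in WT (16.2 to 33.1).

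Among the genes for receptors and hormone co-receptors, Folr1 (ENSMUSG00000001827; chromosome 7, 101858331 to 101870788, minus strand) encodes the folate receptor through which the plexus passes folate to the fluid. Its FPKM was 18.2, 10.9 and 0.193, from 720, 431 and 7 reads. It was 94.4-fold lower in PS19 Zbp1+/- than in WT (45.6 to 236) and, like Ttr, at 0.597 of WT in PS19 (0.529 to 0.674). Kl (ENSMUSG00000058488; chromosome 5, 150952607 to 150993817, plus strand) encodes klotho, a co-receptor for fibroblast growth factor signals that is also shed into the fluid. Its FPKM was 17.5, 14.4 and 2.38, from 2815, 2325 and 351 reads. Of the 10 genes Kl had the largest part of its WT level left in PS19 Zbp1+/-, 13.6% (12.1% to 15.2%), and was 7.36-fold lower than in WT. Neurons also express Kl, and the part of the neuronal signal in its remaining reads was not tested.

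The channel genes were left with few reads in PS19 Zbp1+/-. Kcnj13 (ENSMUSG00000079436; chromosome 1, 87386363 to 87394729, minus strand), which encodes the inward-rectifier potassium channel Kir7.1 of the plexus surface, had an FPKM of 13.4, 11.4 and 0.0498. These levels came from 294, 251 and 1 reads, and with 1 read the ratio to WT was 0.00371 with a wide interval of 9.36e-05 to 0.0208. Aqp1 (ENSMUSG00000004655; chromosome 6, 55336432 to 55348555, plus strand), the water channel of the plexus, had an FPKM of 11.5, 8.01 and 0.0722, from 523, 364 and 3 reads. The PS19 Zbp1+/- to WT ratio for Aqp1 was 0.00625 (0.00129 to 0.0184). Clic6 (ENSMUSG00000022949; chromosome 16, 92485736 to 92541243, plus strand), a member of the chloride intracellular channel family, had an FPKM of 23.9, 20.0 and 0.743 from 1613, 1351 and 46 reads. Clic6 was 32.2-fold lower in PS19 Zbp1+/- than in WT (24.0 to 44.1) and retained more than both other channel genes did.

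Otx2 (ENSMUSG00000021848; chromosome 14, 48657677 to 48673819, minus strand) encodes a homeobox transcription factor needed to form and keep the plexus epithelium. Its FPKM was 4.82, 5.0 and 0.135, from 351, 365 and 9 reads. WT and PS19 were level, with a ratio of 1.04 and an interval that holds 1 (0.894 to 1.21). Otx2 was 35.8-fold lower in PS19 Zbp1+/- than in WT (18.6 to 78.9).

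From highest to lowest FPKM in WT the genes stood as Ttr, Enpp2, 1500015O10Rik, Sostdc1, Clic6, Folr1, Kl, Kcnj13, Aqp1 and Otx2. In PS19 Sostdc1 came after Kcnj13 and Folr1, with Clic6 following 1500015O10Rik. In PS19 Zbp1+/- Enpp2 led, followed by Ttr, Kl, Sostdc1 and Clic6. Without replicates, whether neighbours in these orders differ beyond the spread between animals was not tested.

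**Figure D1:**
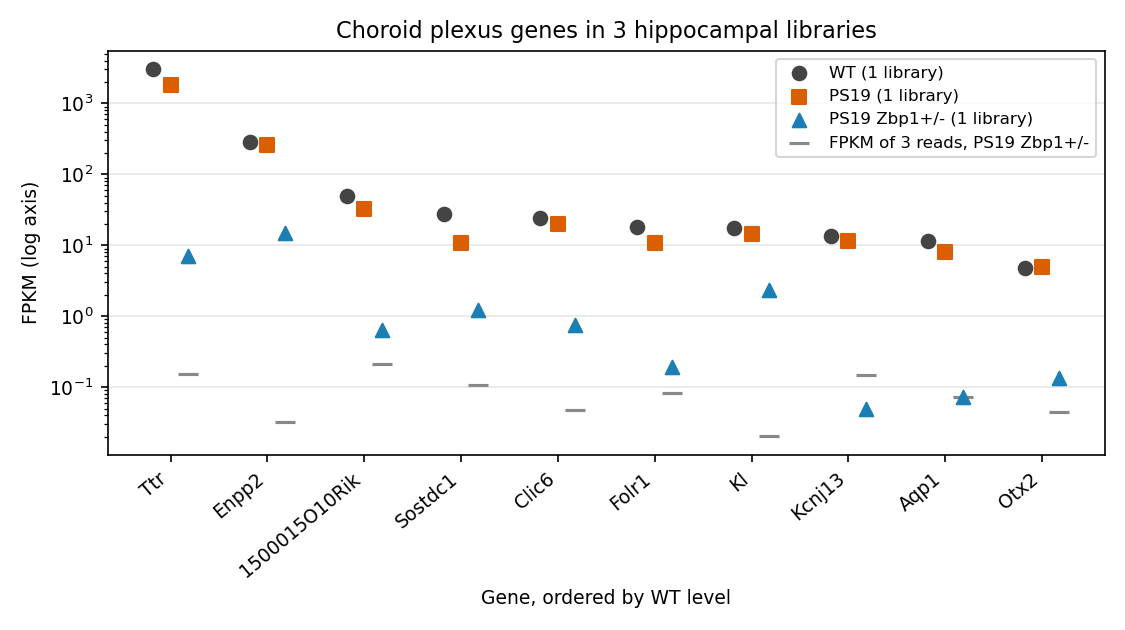
FPKM on a log axis of the 10 genes in the WT, PS19 and PS19 Zbp1+/- libraries, 1 point per library, with a grey dash at the FPKM that 3 reads give in PS19 Zbp1+/-. PS19 lies within 2.59-fold of WT for every gene, and PS19 Zbp1+/- lies below both, with Kcnj13 under the 3-read level and Aqp1 on it.

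All of the set, 10 of 10, were called lower in PS19 Zbp1+/- against WT, meaning a difference of 1 or more in log2(FPKM + 1), which is 2-fold on that scale. The scale understates differences of weakly expressed genes, so a gene that was not called may still differ by over 2-fold in its reads. Among the 12436 protein-coding genes that reached 1 FPKM in one or both libraries, 2.28% were called lower. The median difference of the set was -3.81 on that scale, with a range from -8.56 to -2.36, against a median of 0.01 over all genes tested. After rescaling to TPM the median of all genes was -0.14 and that of the set -4.89. Between PS19 Zbp1+/- and PS19, again 10 of 10 were lower by that measure, against 5.16% of 12772 genes, with a median of -3.44. The read ratios to PS19 ran from 0.00383 for Ttr to 0.165 for Kl. All 10 genes reached an FPKM of 1 in WT and in PS19 and 4 did so in PS19 Zbp1+/-, so 6 entered these counts through the other library alone. The genes were chosen with these differences known, so the counts describe them and support nothing further. Both comparisons share the PS19 Zbp1+/- library.

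Between PS19 and WT, 1 of 10 genes, Sostdc1, was called lower, against 0.291% of 12703 genes. The median difference was -0.37, against -0.03 over all genes. The read ratios of PS19 to WT ran from 0.386 for Sostdc1 to 1.04 for Otx2, with a median of 0.759. The intervals of 8 genes lay wholly below 1, and those of Kcnj13, at 0.852 (0.717 to 1.01), and Otx2 held 1. The genes did not stand at one common ratio in PS19. Ttr, Folr1 and 1500015O10Rik had ratios from 0.597 to 0.651, while Enpp2 at 0.899, Clic6 at 0.836 (0.777 to 0.899) and Kl at 0.824 (0.780 to 0.871) stood nearer to WT.

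**Figure D2:**
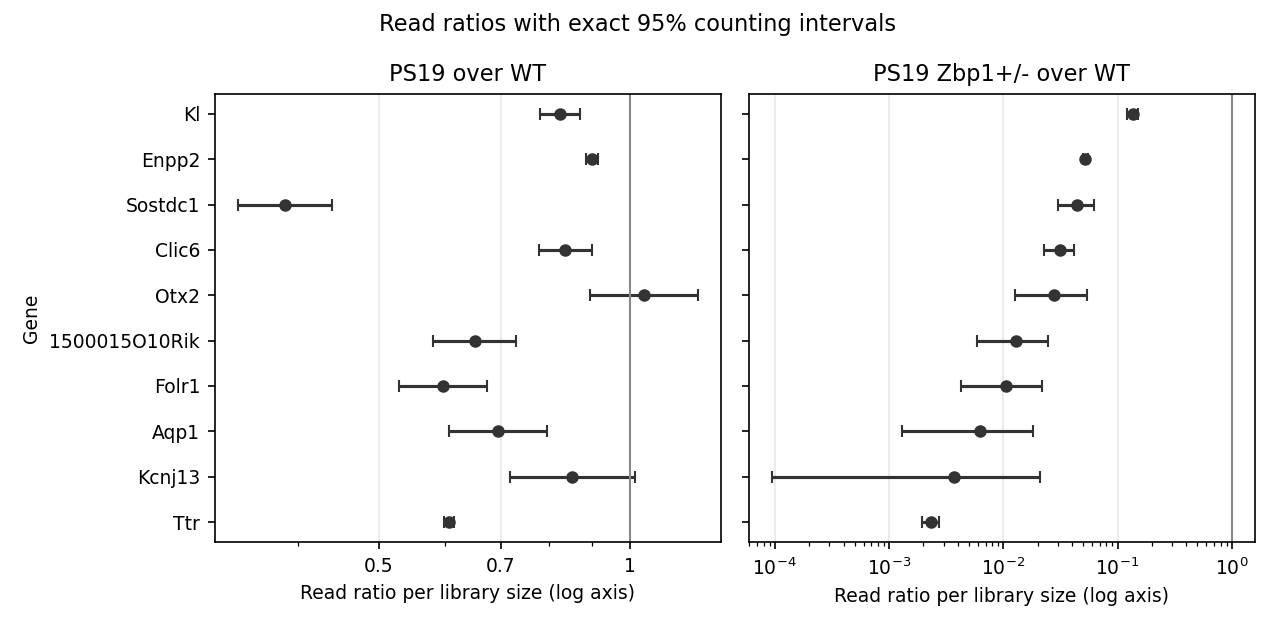
Read ratio per library size, on a log axis, of PS19 over WT (left) and PS19 Zbp1+/- over WT (right) for the 10 genes, with exact 95% counting intervals from 1 library each. On the left 8 intervals lie below 1, and on the right all 10 do, from 0.00232 for Ttr to 0.136 for Kl; the 2 panels have different scales.

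The set was also compared with Ttr inside each library. Ttr made up 87.0%, 83.3% and 25.7% of the summed FPKM of the 10 genes. In PS19 Zbp1+/- Enpp2 made up 54.6% and Kl 8.66%. The summed FPKM was 3488, 2212 and 27.5 in that order, and the genes together took 0.599%, 0.430% and 0.0115% of all reads. Per 100 FPKM of Ttr, Enpp2 stood at 9.43, 14.0 and 213. Kl stood at 0.576, 0.783 and 33.7. Folr1 stood at 0.598, 0.589 and 2.73. For these genes the proportions differed less between WT and PS19 than between either and PS19 Zbp1+/-.

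Had every gene stood in the same proportion to Ttr in PS19 Zbp1+/- as in WT, Kl would have had 6.00 reads and had 351, Enpp2 60.8 and had 1372, Clic6 3.44 and had 46, and Sostdc1 1.80 and had 34. The ratio of Kl to Ttr was 58.5 times that in WT (47.7 to 72.1), and that of Enpp2 22.6 times (18.9 to 27.1). For Sostdc1 it was 18.9 times (12.5 to 27.9), for Clic6 13.4 times (9.33 to 18.9) and for Otx2 12.0 times (5.34 to 23.8). Folr1 and 1500015O10Rik stood nearer to Ttr, at 4.56 (1.79 to 9.71) and 5.52 (2.46 to 10.9). For Aqp1, at 2.69 (0.547 to 8.08), and Kcnj13, at 1.60 (0.0400 to 9.12), a difference from Ttr was not detectable at this depth. In all, 7 of the 9 genes were left in larger proportion than Ttr.

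**Figure D3:**
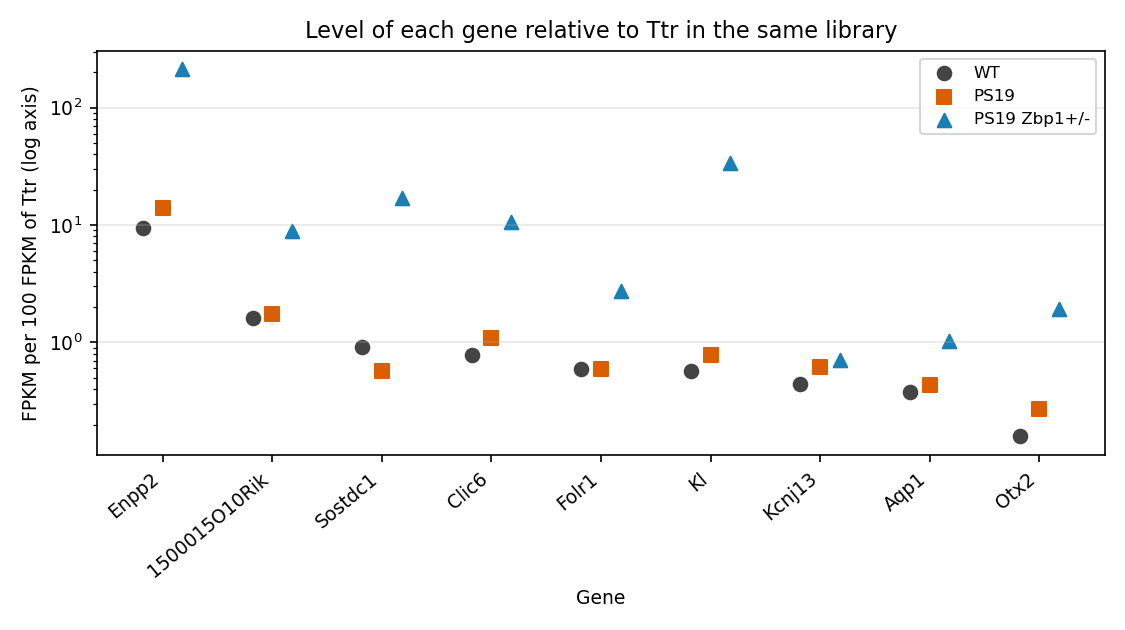
FPKM of each of the other 9 genes per 100 FPKM of Ttr in the same library, on a log axis, 1 point per library. WT and PS19 points lie within 1.71-fold of each other, while in PS19 Zbp1+/- Enpp2 reaches 213 and Kl 33.7.

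In PS19 Zbp1+/- weakly expressed genes were more often without reads. That library had 5 of the 10 genes at 12 reads or fewer (Folr1, 1500015O10Rik, Kcnj13, Aqp1 and Otx2), and neither other library had any. Over the whole table, 357 genes had 8 to 12 reads in each of the other libraries, and 57 of these (16.0%, interval 12.3% to 20.2%) were at 0 in PS19 Zbp1+/-. The matching shares were 0.410% for PS19 and 2.14% for WT. The part of such missing weak genes in the 5 low counts was not tested, and the counting intervals do not cover it. Ttr, Enpp2, Kl, Clic6 and Sostdc1 had 34 reads or more there.

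Some reads could belong to genes that overlap the set, since the strand setting of the counting is not given in the sources used here. Gigyf2, which overlaps Kcnj13 on the other strand, had 1097, 1179 and 930 reads. Anapc15, which overlaps Folr1, had 138, 104 and 139. Neither was low in PS19 Zbp1+/- as the gene it overlaps was. Otx2os1, a long noncoding RNA opposite Otx2, had 10, 7 and 0 reads.

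A wider group of 70 genes known from choroid plexus was examined in 5 lists. Of these, 63 reached 1 FPKM in WT or PS19 Zbp1+/- and were compared. In PS19 Zbp1+/- against WT, 39 of the 63 were called lower and 0 higher, beside 2.28% and 1.07% of all genes, and the median of the 63 was -1.25. Setting genes at 0 reads to 3 reads left the median at -1.25. The compared genes at 0 reads keep their side of the median there, so this does not measure the effect of missing weak genes. In PS19 against WT 0 of the 63 were called, beside 0.291% of all genes called lower and 2.2% higher. After rescaling to TPM 1 of the 63 was called lower, beside 60 of 12703 genes. Their median of -0.07 turned to 0.02 under TPM. These lists were written with results of these data known. Many of the 70 listed genes are also made by other brain cells.

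The counts of the 5 lists are of genes called lower in PS19 Zbp1+/- against WT out of those compared, to be read beside the 2.28% over all genes. Ion and water transport had 7 of 14 called lower, against 2.28% of all genes. Slc4a5, a sodium bicarbonate cotransporter of the plexus, had 541, 602 and 0 reads, at least 165-fold lower than in WT with 3 reads as the floor. Kcne2, a potassium channel subunit that is made in the plexus, had 413, 306 and 2 reads. The sodium pump subunit gene Atp1b1, widely expressed in brain, was at 510, 448 and 545 FPKM. Carbonic anhydrase Car2 was at 93.1, 96.1 and 57.1 FPKM, and the bicarbonate transporter Slc4a10, also neuronal, at 45.3, 38.5 and 35.9.

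Solute and vitamin transport had 7 called lower of the 17 compared out of 19 listed, against 2.28% of all genes. The sulfate transporter Slc13a4 had 770, 605 and 16 reads, and the lactate transporter Slc16a8 266, 209 and 13. The copper transporter Slc31a1 was 1.06 log2 units lower than in WT, from 10.1 to 4.31 FPKM, while the vitamin C transporter Slc23a2 was at 19.9 FPKM in WT and 21.1 in PS19 Zbp1+/-. Slc29a4, at 18.9 and 13.7 FPKM, and the thyroxine transporter Slco1c1, at 16.9 and 8.88, were not lower by 2-fold.

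Secreted proteins and receptors had 14 called lower of the 15 compared out of 16 listed, against 2.28% of all genes. Igfbp2, which binds insulin-like growth factors, was at 77.7, 61.2 and 18.6 FPKM. The collagen gene Col9a3 was at 21.2, 20.9 and 1.77 FPKM, and Ace, the angiotensin-converting enzyme, at 18.3, 19.6 and 3.21. Mfrp had 451, 569 and 10 reads and the coagulation factor gene F5 had 757, 844 and 14. The serotonin receptor gene Htr2c, strongly expressed in plexus and also in neurons, stood level at 8.79, 8.55 and 8.02 FPKM.

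Junction, keratin and cytoskeleton genes had 9 called lower of the 13 compared out of 14 listed, against 2.28% of all genes. The tight junction gene Cldn2 had 467, 360 and 9 reads, Prr32 had 164, 123 and 2, and the epithelial keratin Krt18 had 175, 131 and 0. Ezr, which links actin to the membrane, was at 25.9, 30.7 and 17.6 FPKM, Vat1l at 13, 11.6 and 6.67, and the protease inhibitor Spint2 at 11.9, 6.60 and 6.49. Of 7 transcription factors 4 were compared and 2 were called lower, against 2.28% of all genes. These were Msx1 from 7.77 to 2.20 FPKM and Lmx1a from 66 to 0 reads. Gmnc, a regulator of multiciliated cells, was at 1.34 and 0.704 FPKM in WT and PS19 Zbp1+/-, and Otx1, a relative of Otx2, at 0.641 and 1.29.

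**Figure D4:**
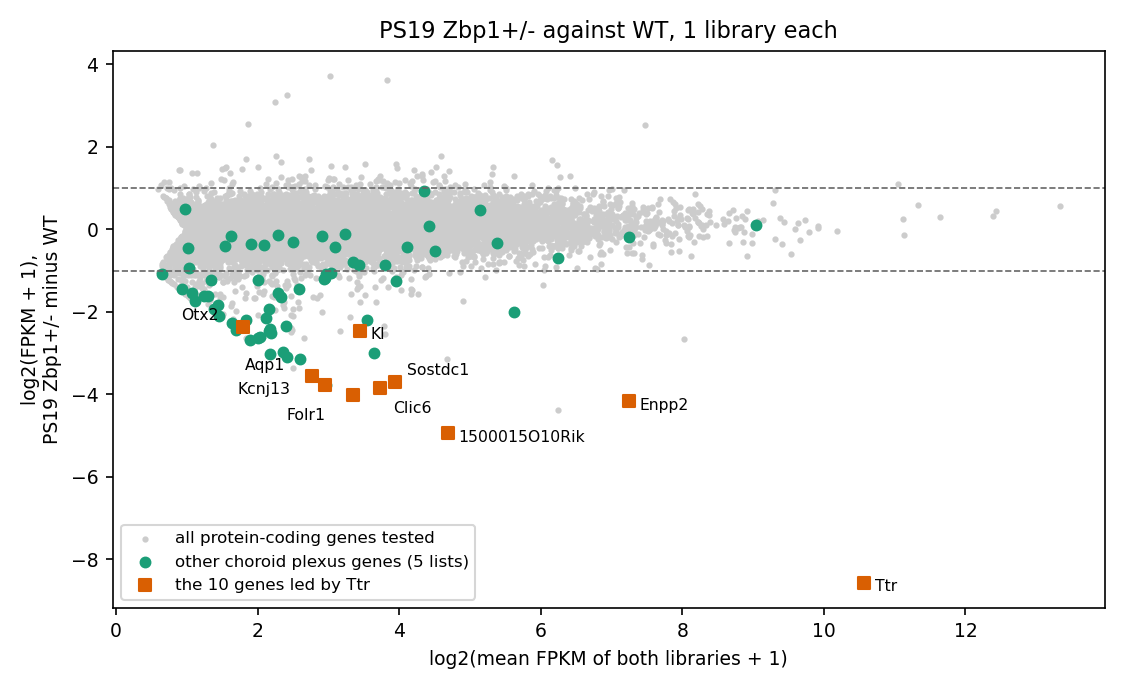
Difference in log2(FPKM + 1) between PS19 Zbp1+/- and WT against the log2 mean level, 1 library each, for the protein-coding genes tested, with the 10 genes and the 63 comparable genes of the 5 other plexus lists marked and dashed lines at 2-fold. All 10 genes lie below the lower line, Ttr at -8.56, and 39 of the other plexus genes do.

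By their pattern over the 3 libraries, the genes closest to the set were found among 12865 other protein-coding genes, as the smallest distance between log2(FPKM + 1) centred over the libraries and the median profile of the set. With 3 libraries many genes can lie close by such a measure. The 10 closest were Kcne2 (distance 0.0706), Cox8b, Slc13a4, Rps2, Prr32, Col9a3, Krt18, Cldn2, Slc4a5 and Zic1 (distance 0.851). Of these, 7 are in the plexus lists, which held 63 genes reaching 1 FPKM in any library, beside the 12865 candidates. The set and the lists were both chosen with results of these data known, so this overlap is description and supports nothing further. Cox8b, a cytochrome oxidase subunit, had 58, 69 and 0 reads, and Zic1, a zinc finger transcription factor, had 964, 1090 and 66. Rps2 had 4555, 1943 and 173 reads and has near-identical copies, so its reads are uncertain.

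Genes that work with the products of the set were given by lists. Of 15 genes for thyroid hormone and retinol handling 13 were compared, and 1 was called higher in PS19 Zbp1+/- against WT, Dio3, which inactivates thyroid hormone, with 137, 42 and 418 reads, against 1.07% of all genes higher. The thyroid hormone receptor Thra was at 156, 123 and 202 FPKM, the hormone-binding Crym at 71.2, 37.5 and 105 and the target gene Klf9 at 40.6, 48.0 and 44.1. Ttr was low beside Thra, Crym and Klf9, whose levels were within 2-fold of WT.

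Of 9 genes for lysophosphatidic acid (LPA) receptors and phosphatases, which sense or remove what Enpp2 makes, 4 were compared between PS19 Zbp1+/- and WT and 5 in each other comparison. None of those compared was called, beside the 2.28% lower and 1.07% higher of all genes between PS19 Zbp1+/- and WT, a share too small to read a result from 0 of so few. The phosphatases Plpp3, Plpp1 and Plpp2 were at 92.0, 9.60 and 2.14 FPKM in PS19 Zbp1+/- against 82.5, 8.81 and 2.52 in WT, and the receptor Lpar1 was at 4.91 against 6.18. Of 12 genes for folate uptake and one-carbon enzymes 9 were compared between PS19 Zbp1+/- and WT, and 0 of the 9 were called, near the same shares of all genes. Mthfd1 was at 10.0 FPKM in WT and 10.4 in PS19 Zbp1+/-, Ggh at 8.67 and 6.40, Shmt2 at 7.05 and 6.40, and the folate transporter Slc46a1 at 6.91 and 6.07. Of 9 partners of klotho, 3 were compared and 0 were called, again near the shares of all genes. The receptors Fgfr1, Fgfr3 and Fgfr2 were at 17.0, 18 and 4.84 FPKM in WT and 22.7, 18.9 and 3.50 in PS19 Zbp1+/-. The klotho ligand gene Fgf23 had 5, 8 and 11 reads. Under TPM 1 gene each of the LPA and klotho lists was called lower in PS19 Zbp1+/- against PS19, beside 1495 of 12772 genes. At that setting 1 LPA gene was called higher in PS19 against WT, beside 582 of 12703 genes.

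Of 12 Bmp and Wnt partners of Sostdc1 11 were compared, and 2 were called lower in PS19 Zbp1+/- against WT, beside 2.28% of all genes. These were the ligand genes Bmp6, at 7.22, 9.49 and 1.18 FPKM, and Bmp4, with 65, 60 and 7 reads. The receptors Bmpr2, at 9.95 and 11.0 FPKM in WT and PS19 Zbp1+/-, and Bmpr1a, at 9.33 and 6.28, and the secreted Dkk3, at 108 and 125, were within 2-fold. In PS19 both ligand genes were within 2-fold of WT.

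Markers of cells next to the plexus were read in the same libraries. Of 12 genes listed as markers of the ependyma, the ciliated lining of the ventricle, 9 were compared. How much of their signal came from ependyma and how much from plexus was not tested. Of the 9, 8 were called lower in PS19 Zbp1+/- against WT, beside 2.28% of all genes, and 0 in PS19 against WT, beside 0.291%. Their summed level was 51.0, 42.3 and 12.3 FPKM, and Mia was at 0 reads in all 3. The ciliary regulator Foxj1 was at 9.37, 11.8 and 2.34 FPKM, Tmem212 at 8.18, 5.82 and 1.15, Rsph1 at 8.81, 7.06 and 3.37, Dynlrb2 at 5.94, 3.64 and 1.25, Ccdc153 at 4.87, 2.67 and 0.838, and Pifo at 3.19, 2.05 and 0.336. Ependymal genes were low in the same library as the plexus genes, with 24.1% of the WT sum left against 0.787% for the 10 genes. Their part in the plexus values was not tested.

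Of 12 leptomeningeal and stromal fibroblast genes 11 were compared, and 7 were called lower in PS19 Zbp1+/- against WT, beside 2.28% of all genes. Among them were Islr at 7.42 and 2.33 FPKM, Aldh1a2 at 4.92 and 0.865, Ogn at 4.74 and 1.23 and Crabp2 at 2.19 and 0.335. Their sum was 56.0, 37.6 and 40.5 FPKM, with none at 0. The matrix gene Dcn ran otherwise, at 11.3, 4.70 and 20.7, and Igfbp6 stood at 13.6, 7.33 and 11.5. Of 10 endothelial genes 9 were compared and 0 were called lower in PS19 Zbp1+/- against WT, near the 2.28% of all genes. Their sums were 68.6, 74.3 and 78.2 FPKM, with none at 0. Within that list Cldn5 was at 22.4, 19.1 and 38.1 FPKM, Ly6c1 at 19.6, 20.1 and 13, Slco1a4 at 6.64, 9.11 and 5.91 and Abcb1a at 4.43, 7.85 and 4.53. Of 8 macrophage genes of vessels and plexus 3 were at 0 reads in PS19 Zbp1+/-, and these were weak elsewhere. Pf4 had 9, 5 and 0 reads, Clec10a 24, 21 and 0 and Ms4a7 5, 25 and 0. Of all genes with 8 to 12 reads in each other library, 16.0% were at 0 there. Between PS19 Zbp1+/- and WT only 1 of the 8, Stab1, was compared, and it was not called, beside 2.28% lower and 1.07% higher of all genes. The sum of the 8 was 5.38, 6.68 and 2.69 FPKM. Stab1 was at 2.14, 2.87 and 2.35 FPKM, Mrc1 had 80, 119 and 6 reads and Cd163 37, 95 and 8.

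The tissue taken was read from regional markers. The 10 thalamus and habenula genes summed to 20.3, 52.0 and 14.6 FPKM, with none at 0. Of the 7 compared, 5 were called higher in PS19 against WT, beside 2.2% of all genes. Prkcd was at 8.15, 23.1 and 1.69 FPKM, Plekhg1 at 1.89, 7.42 and 1.16, Slc17a6 at 2.98, 7.48 and 4.46 and Rora at 2.41, 6.60 and 2.05. Tac2, Gpr151 and Chrnb4 of the same list were not higher in PS19. Tac2 had 50, 32 and 77 reads, Gpr151 21, 19 and 22 and Chrnb4 26, 22 and 4. In PS19 Zbp1+/- against PS19, 4 of the 7 compared were called lower, beside 5.16% of all genes. The 8 striatum genes summed to 53.5, 44.4 and 35.1, with Ppp1r1b at 26.1, 25.2 and 15.2, Penk at 15.4, 11.9 and 10.8 and Tac1 at 2.44, 1.45 and 1.69. Of 12 hippocampal neuron genes, all compared, 2 were called lower and 1 higher in PS19 Zbp1+/- against WT, beside 2.28% and 1.07% of all genes. Fibcd1 was at 37.0, 27.0 and 111 FPKM, Neurod6 at 69.4, 50.8 and 57.9, Bok at 53.3, 44.8 and 29.7, C1ql2 at 51.0, 34.0 and 37.5, Lct at 5.45, 5.35 and 2.08 and Dsp at 3.86, 4.13 and 1.28. The regional markers differed between libraries too, and their part in the plexus values was not tested.

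The oligodendrocyte genes Mbp, Mobp and Cldn11 were at 272, 102 and 68.0 FPKM in WT, 484, 179 and 148 in PS19 and 185, 65.9 and 43.4 in PS19 Zbp1+/-. All 12 of that list were higher in PS19 than in WT. Of them 1 was called higher on the log2(FPKM + 1) scale, beside 2.2% of all genes, or 2 under TPM, beside 582 of 12703 genes. Enpp2 was not higher in PS19. In PS19 Zbp1+/- against PS19 all 12 oligodendrocyte genes were called lower, with a median of -1.39, beside 5.16% of all genes. Enpp2 was called lower there too. Against WT 0 of the 12 were called lower, beside 2.28% of all genes, or 3 under TPM, beside 626 of 12436 genes. Otx2 and Ttr are also made in the retinal pigment epithelium, and Otx2 in the pineal gland. Of 8 genes of these tissues, summing to 10.6, 10.7 and 10.6 FPKM, Rlbp1, which astrocytes also make, held 8.38, 9.32 and 8.60. The others were low in every library, with Best1 at 27, 24 and 49 reads, Aanat at 25, 11 and 12 and Rpe65 at 11, 6 and 1. Tph1 was at 0 reads in WT, Mlana and Tyr in PS19, and Mlana, Tyr and Asmt in PS19 Zbp1+/-.

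**Figure D5:**
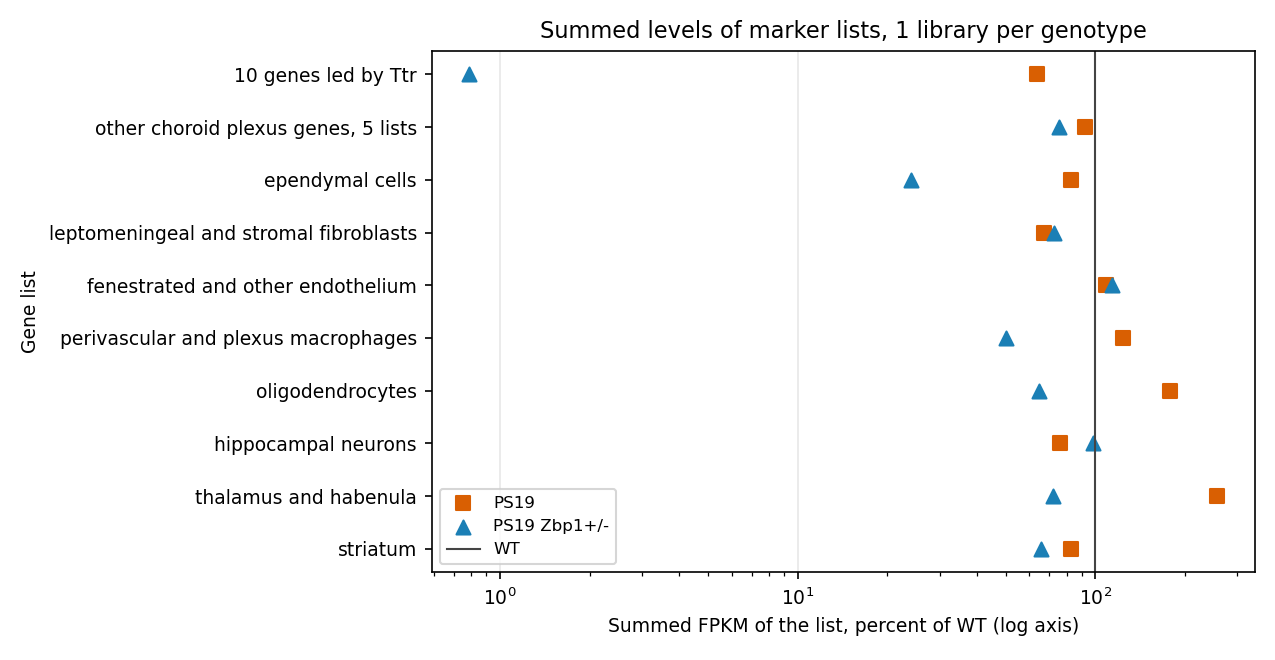
Summed FPKM of each marker list in PS19 and PS19 Zbp1+/- as a percentage of WT, on a log axis, 1 library per genotype; the vertical line is WT. The 10 genes stand at 0.787% in PS19 Zbp1+/- and ependymal genes at 24.1%, while the sum of the other plexus genes, at 75.3%, is carried largely by the widely expressed Atp1b1. Hippocampal neuron genes stand at 98.1% in PS19 Zbp1+/-, where Fibcd1 alone is at 111 FPKM against 37.0 in WT.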

How the data were processed

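Bulk RNA-seq of mouse hippocampus was used, with 1 library per genotype. The authors deposited FPKM values per gene, and the submitters' processing notes name Trim Galore 0.6.5, STAR 2.5.3a, featureCounts 2.0.4 and the build mm39. The positions in the deposited table match GENCODE M21 on GRCm38 for 53585 of 54495 shared gene IDs (98.3%), so GRCm38 coordinates are printed. Strand setting and annotation release are not given in the sources used here.

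FPKM times gene length was a whole multiple of 1 step per library in 100% of values, which gave whole reads. Differences of log2(FPKM + 1) were called at 1 or more, among protein-coding genes with FPKM of at least 1 in either library. With 1 library per group no test was run. Read ratios carry exact 95% intervals, computed with Python 3.11.15, pandas 2.3.3 and scipy 1.17.1, and the scripts were tested on simulated data. Named genes were the 10 genes, in each list up to 4 with the highest FPKM plus those differing by 1 or more between PS19 Zbp1+/- and WT (at most 6), and the 10 of most similar pattern. A few genes that this rule names are not reported here. A few macrophage and retinal genes at 0 reads, and Tac2, Gpr151 and Chrnb4, were named after their values were seen. The members and lists were chosen with earlier results of these data known. Alternatives were other pseudocounts, filters, scalings and thresholds.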

Additional observations from a re-analysis of the deposited data

Results flagged for a closer look

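Gm26684, a long noncoding RNA that shares a bidirectional promoter with Enpp2 and lies outside the comparisons above, held 25, 49 and 1 reads in the order WT, PS19, PS19 Zbp1+/-. It drew attention because its read ratio of PS19 to WT was 1.96 (exact 95% interval 1.18 to 3.31), above the control level, while Enpp2 itself stood at 0.899. There is 1 library of each genotype, and the cause was not tested.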

How the results depend on the processing

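No paired analysis was possible because each genotype has 1 library. Over 236 recomputed values of the 10 genes, 0 changed sign and 0 changed their call at the 2-fold threshold. The filters and the setting with every biotype only change which genes are kept, so there the value of a gene could not change. Of the 236 values, 83 moved outside the counting interval of the main value. The median of the 10 genes between PS19 Zbp1+/- and PS19 was -4.90 with a pseudocount of 0.1, -4.04 with 0.5, -3.58 with a mean FPKM of at least 5 and -4.64 under TPM. Between PS19 Zbp1+/- and WT it was -5.40, -4.34 and, under TPM, -4.89. As log2 read ratios with 0 reads set to 3, chosen after seeing the data, these medians were -5.44 and -5.72. Sostdc1 was not called at 4-fold, which left 0 genes lower between PS19 and WT. Counts over all genes depended on the setting. Between PS19 and WT, lower and higher calls numbered 101 and 541 with a pseudocount of 0.1, 16 and 102 with a mean FPKM of at least 5, 60 and 582 under TPM, 176 and 514 with every biotype, and 2 and 37 at 4-fold. Between PS19 Zbp1+/- and PS19 they were 1184 and 430 with a pseudocount of 0.1, 1041 and 528 with every biotype, and 104 and 10 at 4-fold, with 241 lower at a mean FPKM of 5, 1495 lower under TPM and 147 higher by total reads. Between PS19 Zbp1+/- and WT they were 543 and 290, 588 and 422, and 53 and 7 in the same order, with 78 lower and 87 higher at a mean FPKM of 5, 626 lower under TPM and 78 higher by total reads. The share of calls that were higher was 27.9% and 32.0% in these comparisons, 11.1% and 19.0% under TPM, and 14.7% and 17.3% by total reads. At 4-fold it was 8.77% and 11.7%. It rose to 44.0% and 52.7% with a mean FPKM of at least 5, and to 33.7% and 41.8% with every biotype. The share thus moved in both directions. The cause of these shifts was not tested. Depth limits the values of the 5 genes with 12 reads or fewer in PS19 Zbp1+/-.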
